A study of Mus musculus with 6 samples.

Results

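The 10 genes described here encode the main cytosolic heat shock proteins of the mouse. They were chosen by symbol, with earlier results of these data known. They are the Hsp70 genes Hspa1a, Hspa1b and Hspa8, the Hsp110 gene Hsph1, the J-domain gene Dnajb1, the cochaperone gene Bag3, the Hsp90 genes Hsp90aa1 and Hsp90ab1, and the small heat shock genes Hspb1 and Hspb8. All 10 were found among the 56748 genes of the count table, and all 10 were among the 16859 that held enough counts to be tested. RNA came from the cerebellum of adult C57BL/6J mice, 90 to 120 days old. In the MeHg group the dams drank water with 0.2 ppm methylmercury, an organic mercury compound toxic to neurons, from the start of pregnancy to birth, and in the control group 0 ppm. Each group held 3 mice, sampled months after dosing ended, and the labels name no litter, so the p-values cover no more than the spread among these 6 samples, part of which may be technical.

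Heat shock proteins are chaperones: they bind unfolded stretches of other proteins, help them fold, and keep them from clumping. Hsp70 works in a cycle in which a J-domain protein delivers the client and an exchange factor releases it, and Hsp90 finishes the folding of kinases and steroid receptors. Heat shock factor 1 switches the inducible genes on when misfolded proteins or reactive metals use up free chaperones, while the constitutive genes stay abundant in unstressed neurons.

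Total counts ran from 14116088 to 20303833 per library. The granule cell gene Gabra6 (687 to 797 CPM in controls and 435 to 558 CPM in MeHg) and the Purkinje cell gene Pcp2 (202 to 317 CPM) were present in all 6, as the tissue label has it. CPM is the count scaled to the size of the library. Control 2, labelled female, had 0.249 CPM of Xist and 87.2 CPM of the Y-linked gene Ddx3y, like the libraries labelled male (Control 3 and MeHg 2) and unlike the other females (694 to 772 CPM of Xist and 0 of Ddx3y). Values without Control 2 are given beside each heat shock gene whose fold change they move by over 1.5 times or whose call they change. MeHg 2 also stood apart, with a brainstem and midbrain marker sum of 254 CPM against 52.1 to 62.2 CPM in the other 5. In such bulk tissue, fewer cells of a type and less RNA per cell cannot be told apart.

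None of the 10 heat shock genes passed edgeR's quasi-likelihood test of MeHg against control at an adjusted p under 0.05, where 2.36% of all genes tested did. At an unadjusted p under 0.05 there were 3 of 10, against 24.5% of all genes. DESeq2 called 2 of the 10 (Hspa8 lower and Hspb8 higher) beside 8.97% of all genes, limma-voom called 0 beside 2.12%, and limma on log2 FPKM called 0 beside 0% of all genes. The fold change was negative for 8 genes and positive for 2, Hspb1 and Hspb8. Of all 16859 genes tested, 8249 had a negative fold change. The median log2 fold change of the 10 was -0.17, where that of all genes tested was 0.01. Granule cell markers were lower in the same MeHg libraries: all 12 had a negative fold change (median -0.39), 6 were called lower, and their sum was 7617 to 8087 CPM in controls and 5620 to 6521 CPM in MeHg. Their part in the heat shock values was not tested. The control libraries did not behave alike: for 9 of the 10 genes Control 2 was the lowest control, which held for 34.9% of all genes tested.

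Which of the 10 genes passed under other settings is given with each gene, and is to be read against the share of all genes called higher and lower there. Those shares were 3.73% and 3.66% with no filter on low counts (7.38% in all), 3.66% and 5.31% with DESeq2, and 1.14% and 2.47% with the labelled sex as a term (3.61% in all). They were 0.281% and 1.01% without Control 2 (1.29% in all), 2.16% and 4.16% without MeHg 2 (6.33%), and 3.61% and 6.65% without both libraries numbered 2 (10.3%). Leaving out both libraries numbered 2 was chosen after seeing the data, as was the Xist term, so calls under it are not independent of these values. No heat shock gene was called with DESeq2's size factors (0.581% and 1.67%, 2.25% in all), upper-quartile scaling (0.463% and 0.706%, 1.17%), the replicate number as a block (1.53% and 2.31%, 3.84%), limma-voom (0.475% and 1.65%) or the log2 CPM of Xist as a term (5.02% and 4.71%, 9.73%).

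**Figure D1:**
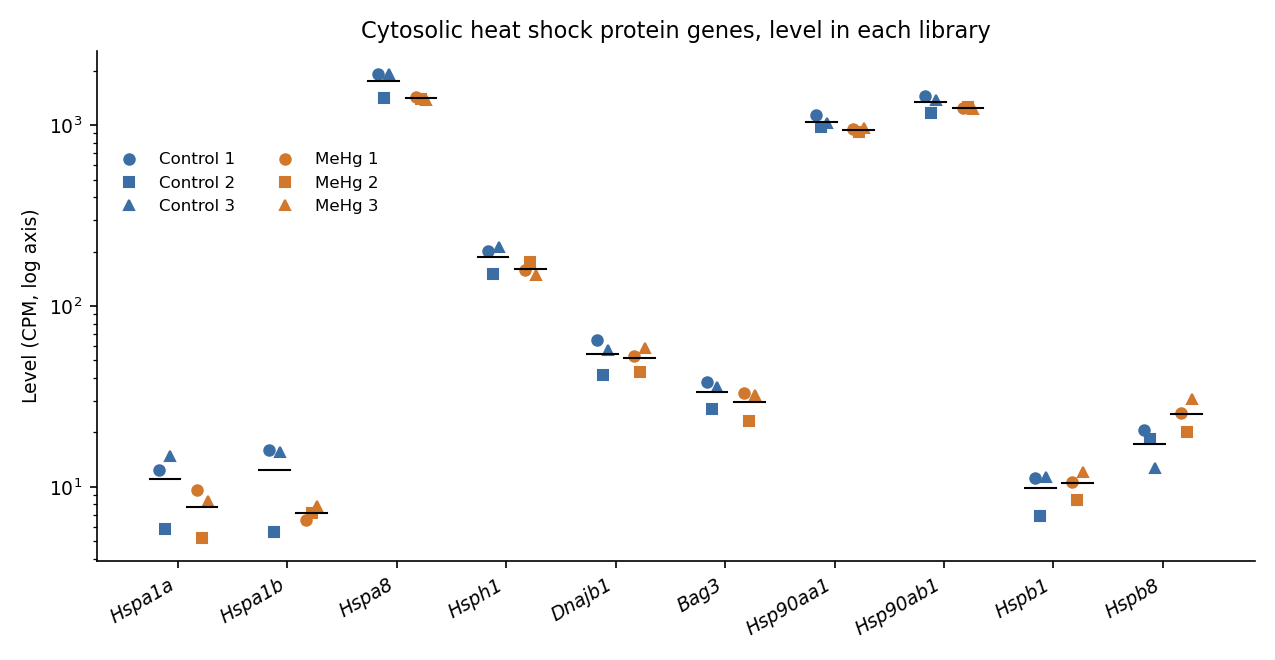
Level of each heat shock gene in CPM (log axis) in the 6 libraries. Points are libraries (blue control, orange MeHg; circle, square and triangle for replicates 1, 2 and 3) and black lines are group means. Control 2 lies below Control 1 and 3 for every gene but Hspb8, and among the 10 genes only Hsp90aa1 has groups that do not overlap.

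The 3 most abundant genes were the 2 Hsp90 genes and Hspa8, the constitutive Hsp70. Levels between genes are compared in FPKM, counts scaled to gene length and library total, as deposited. Over the 6 libraries Hsp90ab1 averaged 403 FPKM (range 367 to 455), Hspa8 343 (302 to 420) and Hsp90aa1 238 (217 to 271). The ranges of the first 2 overlapped, although Hsp90ab1 was above Hspa8 in 6 of 6 libraries. That order rests on the deposited gene lengths, 4301 bases for Hspa8 and 2999 for Hsp90ab1. In CPM, which takes no account of length, Hspa8 was the higher in every library. A gap then separated the 3 most abundant genes from Hsph1 at 22.5 FPKM and Dnajb1 at 15.5 FPKM. Bag3 (11.5 FPKM), Hspb8 (10.2) and Hspb1 (9.21) followed with overlapping ranges, and Bag3 exceeded Hspb8 in only 3 of 6 libraries. The stress-inducible pair came last, Hspa1b at 3.28 FPKM and Hspa1a at 2.96 FPKM, also with overlapping ranges. The 10 genes together took 0.377% to 0.475% of all counts in a library, most of it from Hspa8 and the 2 Hsp90 genes.

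Hspa1a and Hspa1b encode the inducible Hsp70, which is scarce in resting tissue and rises steeply after heat, hypoxia or proteotoxic metals. They lie side by side on the minus strand of chromosome 17 (GRCm39), Hspa1a at 35188166 to 35191132 and Hspa1b at 35175412 to 35178214. The pair is close to identical: 99.4% of 1926 aligned coding bases match, and 54.6% of the stretches of 150 coding bases in Hspa1a occur unchanged in Hspa1b. How reads that fit both were counted is not given in the sources used here, so the split between them is uncertain and their sum is given too. The log2 CPM of the 2 genes correlated over the libraries (Pearson r = 0.835, Spearman 0.657), but the uncertain split bears on these values. The 250 bases upstream of each start are shown because heat shock factor is known to bind inverted GAA repeats. They are RefSeq promoter sequences, located here in GRCm39 at chr17:35191133-35191382 for Hspa1a and chr17:35178215-35178464 for Hspa1b, both on the minus strand. Capitals mark the motif GAANNTTC.
Hspa1a: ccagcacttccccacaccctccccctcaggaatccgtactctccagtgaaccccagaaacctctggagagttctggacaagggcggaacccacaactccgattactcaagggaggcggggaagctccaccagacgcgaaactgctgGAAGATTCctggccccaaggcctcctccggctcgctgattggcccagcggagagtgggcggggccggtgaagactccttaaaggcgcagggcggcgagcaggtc
Hspa1b: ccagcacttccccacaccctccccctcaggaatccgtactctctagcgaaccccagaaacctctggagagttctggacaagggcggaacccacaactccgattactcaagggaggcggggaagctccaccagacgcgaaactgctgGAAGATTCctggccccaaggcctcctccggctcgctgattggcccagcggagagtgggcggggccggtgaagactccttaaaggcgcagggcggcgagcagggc
The 2 upstream stretches differ at 3 of 250 bases and carry the motif at the same place, 104 bases before the start.

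Hspa1a was at 12.4, 5.84 and 14.8 CPM in controls 1, 2 and 3 and at 9.58, 5.23 and 8.36 CPM in MeHg 1, 2 and 3. Controls 1 and 3 were above every MeHg library, and Control 2 was below MeHg 1 and 3, so the groups overlapped. The log2 fold change was -0.50 ± 0.34 (SE, edgeR adjusted p = 0.392), and it ran from -0.24 without Control 3 to -0.81 without Control 2 (adjusted p = 0.111), with -0.28 without MeHg 2. Hspa1b was at 16.0, 5.64 and 15.5 CPM in the controls and at 6.55, 7.20 and 7.82 CPM in MeHg. Here Control 2 was the lowest of all 6 libraries and the other controls were above every MeHg library. Its log2 fold change was -0.78 ± 0.34 (edgeR adjusted p = 0.198), and without Control 2 it was -1.14 and passed (adjusted p = 0.0361). It also passed with no filter on low counts (-0.78, adjusted p = 0.00206) and without both libraries numbered 2 (-1.13, adjusted p = 0.00594). Summed, the pair was at 23.4 ± 10.4 CPM (SD, n = 3) in controls and 14.9 ± 2.15 CPM in MeHg, with a log2 fold change of -0.64 ± 0.31 (edgeR adjusted p = 0.241). The SD of the sum in controls was larger than the difference between the group means.

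Hspa8 encodes Hsc70, the constitutive Hsp70, which also strips clathrin coats from synaptic vesicles (chromosome 9, 40712280 to 40721383, plus strand). Its level was 1910.4, 1408 and 1921 CPM in controls 1, 2 and 3 and 1431, 1402 and 1386 CPM in MeHg. Control 2 sat among the MeHg libraries while Controls 1 and 3 stood well above. The log2 fold change was -0.31 ± 0.12 (edgeR adjusted p = 0.154). It passed by DESeq2 (-0.31, adjusted p = 0.0441), with no filter on low counts (-0.32, adjusted p = 0.0087) and without both libraries numbered 2 (-0.44, adjusted p = 0.0117). Without Control 2 alone it was -0.45 (adjusted p = 0.0511).

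Hsph1 encodes Hsp110, which exchanges nucleotide on Hsp70 and helps it take clumped protein apart (chromosome 5, 149537752 to 149559841). It was at 200.3, 149.7 and 213 CPM in the controls and 158, 174 and 149.2 CPM in MeHg. Controls 1 and 3 were again above all MeHg libraries, and Control 2 was level with MeHg 3. The log2 fold change was -0.22 ± 0.12 (edgeR adjusted p = 0.296). It was -0.37 without Control 2 (edgeR adjusted p = 0.0678) and -0.13 without Control 3. It was called only when both libraries numbered 2 were left out (-0.42, edgeR adjusted p = 0.00729), a setting added after seeing the data.

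Dnajb1, the J-domain partner Hsp40 (chromosome 8, 84334822 to 84339282), was at 65.3, 41.6 and 57.0 CPM in controls and 53.0, 43.0 and 58.2 CPM in MeHg. Replicate 2 was the lowest library in each group and the groups overlapped fully. Its log2 fold change was -0.09 ± 0.17 (edgeR adjusted p = 0.792), and its sign was positive without Control 1 (0.07) or without MeHg 2 (0.04). Without Control 2 it was -0.25 (adjusted p = 0.282), and without MeHg 3 it was -0.18. Bag3, an exchange factor that sends Hsp70 clients to selective autophagy (chromosome 7, 128125340 to 128148705), was at 37.8, 27.1 and 35.4 CPM in controls and 32.8, 23.2 and 32.3 CPM in MeHg. Its groups overlapped through Control 2, and the log2 fold change was -0.18 ± 0.16 (edgeR adjusted p = 0.528). It was -0.32 without Control 2 (adjusted p = 0.258), -0.08 without Control 1 and -0.03 without MeHg 2.

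Among controls the Hsp90 genes had the smallest SD of log2(CPM + 1) of the 10, at 0.106 for Hsp90aa1 and 0.159 for Hsp90ab1. Hsp90aa1, the stress-responsive isoform (chromosome 12, 110657039 to 110669162), was at 1132, 979 and 1034 CPM in controls and 949, 922 and 965 CPM in MeHg. It was the 1 gene of 10 whose MeHg libraries all lay below all controls, a pattern of 15.5% of all genes tested. The log2 fold change was -0.15 ± 0.08 (edgeR adjusted p = 0.275), and -0.08 without Control 1. Hsp90ab1, the constitutive isoform (chromosome 17, 45878701 to 45884197), was at 1449, 1175 and 1385 CPM in controls and 1244, 1253 and 1230.0 CPM in MeHg. The MeHg values fell between Control 2 and the other 2 controls, with a log2 fold change of -0.10 ± 0.09 (edgeR adjusted p = 0.512). It was -0.19 without Control 2 (adjusted p = 0.214) and -0.04 without Control 1. The FPKM ratio of Hsp90aa1 to Hsp90ab1 ran from 0.561 to 0.636, and its highest value was in Control 2.

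The fold changes of the small heat shock genes were positive but neither passed edgeR's test. Hspb1 encodes Hsp27, which holds unfolded protein and binds actin, and Hspb8 encodes the partner with which Bag3 forms an autophagy complex. Hspb1 (chromosome 5, 135916773 to 135918417) was at 11.2, 6.88 and 11.4 CPM in controls and 10.7, 8.51 and 12.1 CPM in MeHg. As for Dnajb1, replicate 2 was lowest in each group and the groups overlapped. The log2 fold change was 0.09 ± 0.22 (edgeR adjusted p = 0.828). It was -0.11 without Control 2 and -0.02 without MeHg 3, and 0.21 to 0.23 without Control 1, Control 3 or MeHg 2. The Hspb1 promoter carries the motif GAANNTTC at 2 places, and the stretch that holds them (RefSeq, plus strand, GRCm39 chr5:135916626-135916713) is shown with both in capitals for comparison with the Hspa1 pair.
Hspb1: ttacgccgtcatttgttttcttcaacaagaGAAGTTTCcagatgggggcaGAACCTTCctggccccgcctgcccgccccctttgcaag

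Hspb8 (chromosome 5, 116546550 to 116560923) was the only one of the 10 whose log2 fold change was positive under all 19 alternatives. It was at 20.5, 18.3 and 12.7 CPM in controls and 25.5, 20.02 and 30.5 CPM in MeHg. MeHg 1 and 3 were above every control, and MeHg 2 was just below Control 1. The log2 fold change was 0.55 ± 0.20 (edgeR adjusted p = 0.135), a 1.47-fold higher level. It passed by DESeq2 (0.56, adjusted p = 0.0473), with no filter on low counts (0.55, adjusted p = 0.00252), with the labelled sex as a term (0.57, adjusted p = 0.0408, with Control 2 entered as female), without MeHg 2 (0.70, adjusted p = 0.0485) and without both libraries numbered 2 (0.74, adjusted p = 0.0446). With the log2 CPM of Xist in place of the label it was 0.40 and did not pass (adjusted p = 0.0974), and it was 0.38 without Control 3.

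Hspb8 and the markers of choroid plexus, the secretory tissue of the ventricles, put the 6 libraries in the same order, the only 1 of 22 gene lists to share the order of Hspb8. Each of the other heat shock genes was compared with the 22 lists too. Among them 1 match was found, Hsp90aa1 with the Hsp90 cochaperones. No share of all genes that follow the choroid plexus order is given. The 12 choroid plexus markers summed to 156 to 3152 CPM in controls and 2604 to 10323 CPM in MeHg, and none of the 12 was at 0 in every library. Ttr, the defining gene of that tissue, ran from 4.60 CPM in Control 3 to 6381 CPM in MeHg 3. The lowest sum and the lowest Hspb8 were both in Control 3, and the highest of both were in MeHg 3. Endothelial markers (168 to 187 CPM in controls, 193 to 278 in MeHg), ependymal markers (20.9 to 31.8 and 57.3 to 92.1) and mural and fibroblast markers (207 to 252 and 227 to 319) were also highest in MeHg 3. The part of these tissues in the Hspb8 difference was not tested.

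Searched as letters, the full heat shock element of 3 alternating units, in its 2 orientations, was in none of 9 stretches of 250 bases. These lie before the starts that RefSeq lists for 7 of the 10 genes. A stretch of Dnajb1 lies inside the annotated gene, before a start 355 bases in. The listed starts of Hsph1 are 40 and 61 bases inside that gene. The full element is rare in general, at 0.247% and 0.244% of 32851 such stretches. The shorter GAANNTTC, in 6.69% of all stretches, was found for Hspa1a, Hspa1b and Hspb1. The other orientation, TTCNNGAA, in 7.17%, was found for Hsph1 (TTCTCGAA). Each of the shorter motifs reads the same on both strands and is contained in the full element. Hspb8, Bag3 and Dnajb1 had none of these letters in the window, and Hspa8, Hsp90aa1 and Hsp90ab1 were not in the promoter table.

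In these 6 libraries the 9 genes without Hspb8 varied together. Over the 6 libraries all 36 pairs of the 9 genes without Hspb8 had a positive Pearson correlation of log2 CPM (prior count 2), from 0.358 to 0.969 with a median of 0.76, and with group means removed the median was 0.81. These points share their library and its scaling, so the values are a description. Hspb8 was set apart by these same values (2 of its 9 pairs were positive). No share of positive pairs over all genes is given. Hspb8 correlated with the other 9 genes at -0.71 to 0.238 (median -0.33), and with group means removed at -0.56 to 0.461 (median -0.02). For 9 of 10 genes the SD of log2(CPM + 1) was larger in controls than in MeHg, Bag3 being the exception, and this was so for 40.1% of all genes tested. Hspa8 had an SD of 0.256 on that scale in controls and 0.0232 in MeHg, and Hsp90ab1 0.159 and 0.0137.

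**Figure D2:**
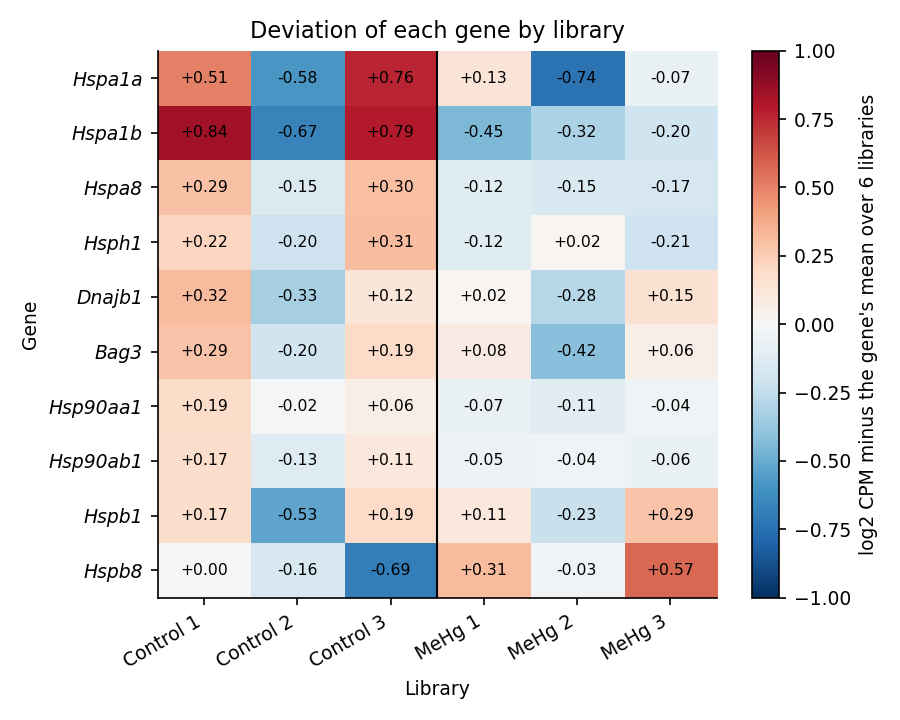
Deviation of log2 CPM of each heat shock gene (rows) from its own mean over the 6 libraries (columns), red above and blue below, with the value printed in each cell. For 9 genes Controls 1 and 3 are positive and Control 2 is negative, and Hspb8 is lowest in Control 3 (-0.69) and highest in MeHg 3 (0.57).

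The genes differed in which libraries were low. Hspa1a, Dnajb1, Bag3 and Hspb1 were lower in both libraries numbered 2 than in the other 4, as were 7.85% of all genes tested. The sum of Hspa1a and Hspa1b, whose split is uncertain, was lowest there too (11.5 CPM in Control 2, 12.4 CPM in MeHg 2). The 16 immediate early genes, which are switched on rapidly by neuronal activity, also had their lowest sums there, 222 CPM in Control 2 and 208 CPM in MeHg 2. Their sums were 567 and 539 CPM in Controls 1 and 3 and 317 and 512 CPM in MeHg 1 and 3. Fos, 1 of these genes, ran from 3.34 CPM in Control 2 and 4.65 CPM in MeHg 2 to 95.0 CPM in Control 1. The 16 genes did not all follow their sum. Egr3 was highest in Control 2 (3.14 CPM). Arc was at 21.3 CPM in Control 2 and 22.3 CPM in MeHg 2, against 20.4 to 23.1 CPM elsewhere. For Hspa8, Hspa1b, Hsph1 and Hsp90ab1 MeHg 2 was not the lowest MeHg library, and it was the highest for Hsph1 and Hsp90ab1. Control 2 was within or below the range of the MeHg libraries for these genes. That held for Hspa1a, Dnajb1, Bag3 and Hspb1 too. The endoplasmic reticulum chaperones, the counterpart set inside the secretory pathway, were at 2615 and 2463 CPM in Controls 1 and 3, at 1845 CPM in Control 2 and at 1767 to 1908 CPM in MeHg. The part of the immediate early genes in these levels was not tested.

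**Figure D3:**
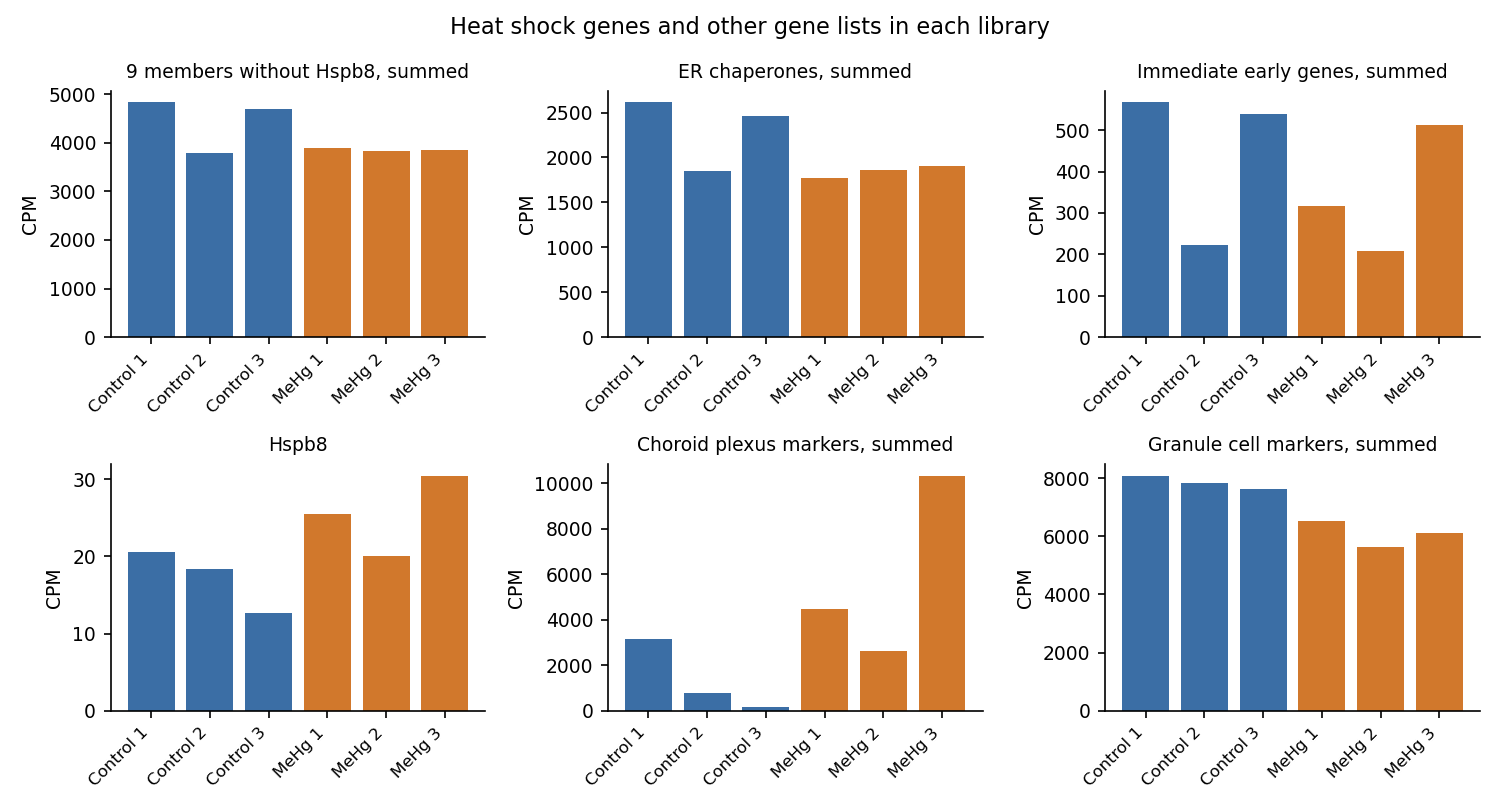
Summed CPM in each library of the 9 heat shock genes without Hspb8, of 13 endoplasmic reticulum chaperone genes, of 16 immediate early genes, of Hspb8 alone, and of 12 choroid plexus and 12 granule cell markers (blue control, orange MeHg). The first 2 sums are high in Controls 1 and 3 only, and most of the first comes from Hspa8 and the Hsp90 genes. Dnajb1 and Hspb1, also in the first sum, did not have Controls 1 and 3 above all MeHg libraries. The immediate early sum is low in both libraries numbered 2, and Hspb8 and the choroid plexus sum peak in MeHg 3.

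Other genes of the pathway were read from the same test. Of 98 listed chaperone and partner genes 93 were tested, and 1 rose and 1 fell at an adjusted p under 0.05, where 0.575% of all genes rose and 1.79% fell. Their median log2 fold change was -0.05, with 37 positive and 56 negative. Fnip1, a folliculin partner that also slows the Hsp90 cycle, fell from 84.6, 92.6 and 79.6 CPM to 68.5, 66.9 and 60.5 CPM. All MeHg libraries were below all controls, with a log2 fold change of -0.39 ± 0.08 (edgeR adjusted p = 0.0456). The call was lost when any 1 library other than MeHg 2 was left out, while the fold change stayed between -0.44 and -0.33. The edgeR adjusted p was 0.0671 without MeHg 1 at the least, and 0.0784 without Control 2. The call was lost too under the gene length offset (0.0915), with upper-quartile scaling (0.0571) and by limma on log2(FPKM + 1) (0.0831). Without Control 1, Control 3 or MeHg 3, with the length offset and by limma on FPKM, 0 of all genes tested were called.

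None of the 5 heat shock factors and regulators passed edgeR's test. Hsf1, the master regulator, was level (51.6 ± 3.70 CPM in controls and 50.4 ± 3.96 CPM in MeHg, log2 fold change -0.03 ± 0.09, edgeR adjusted p = 0.853). Hsf4, a factor best known from the lens, was at 4.11, 5.39 and 4.67 CPM in controls and 6.99, 14.1 and 8.29 CPM in MeHg. All MeHg libraries were above all controls, at 1.05 ± 0.27 (edgeR adjusted p = 0.0669). Hsf4 was called under 5 of 19 alternatives, DESeq2 among them (1.05, adjusted p = 0.00488). These 5 called 3.84% to 10.3% of all genes, and DESeq2 8.97%.

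The signs within classes are to be read against 8249 negative of all 16859 genes tested. Of the partner classes, 14 of 16 Hsp90 cochaperones had a negative fold change (median -0.13, Fnip1 the 1 called). Likewise 9 of 11 other J-domain genes were negative (median -0.09, 0 called), with Dnaja1 at -0.18 ± 0.08. Of 7 other Hsp70 and Hsp110 genes 4 were negative, and Hspa4l, also of the Hsp110 kind, was at -0.25 ± 0.07. Of the exchange factors 4 of 7 were positive, with Bag1 at 0.24 ± 0.06. Both tested small heat shock genes were positive, Hspb6 at 0.48 ± 0.21 and the lens and glial crystallin Cryab at 0.17 ± 0.14, and 5 others were too low to test. The 14 chaperonin and prefoldin genes (median 0.01, Pfdn2 0.27 ± 0.09) and 9 mitochondrial chaperones (0.07, Clpp 0.22 ± 0.08) held 8 and 6 positive members. Endoplasmic reticulum chaperones had 12 of 13 negative (median -0.25), and Sdf2l1, an adaptor of the chaperone BiP, was at -0.87 ± 0.19 (edgeR adjusted p = 0.0507). Of the genes named here from these classes, edgeR's test called Fnip1 only. Other settings called Sdf2l1 in 8 of 19 (adjusted p = 0.000666 by DESeq2), Hspa4l in 4 (0.0362 by DESeq2), Bag1 in 2, and Dnaja1, Hspb6 and Pfdn2 in 1 each. The settings with these calls called 1.29% (without Control 2) to 10.3% (without both libraries numbered 2) of all genes, and DESeq2 8.97%. Without Control 2 the log2 fold change of Sdf2l1 was -1.08 (edgeR adjusted p = 0.0311).

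**Figure D4:**
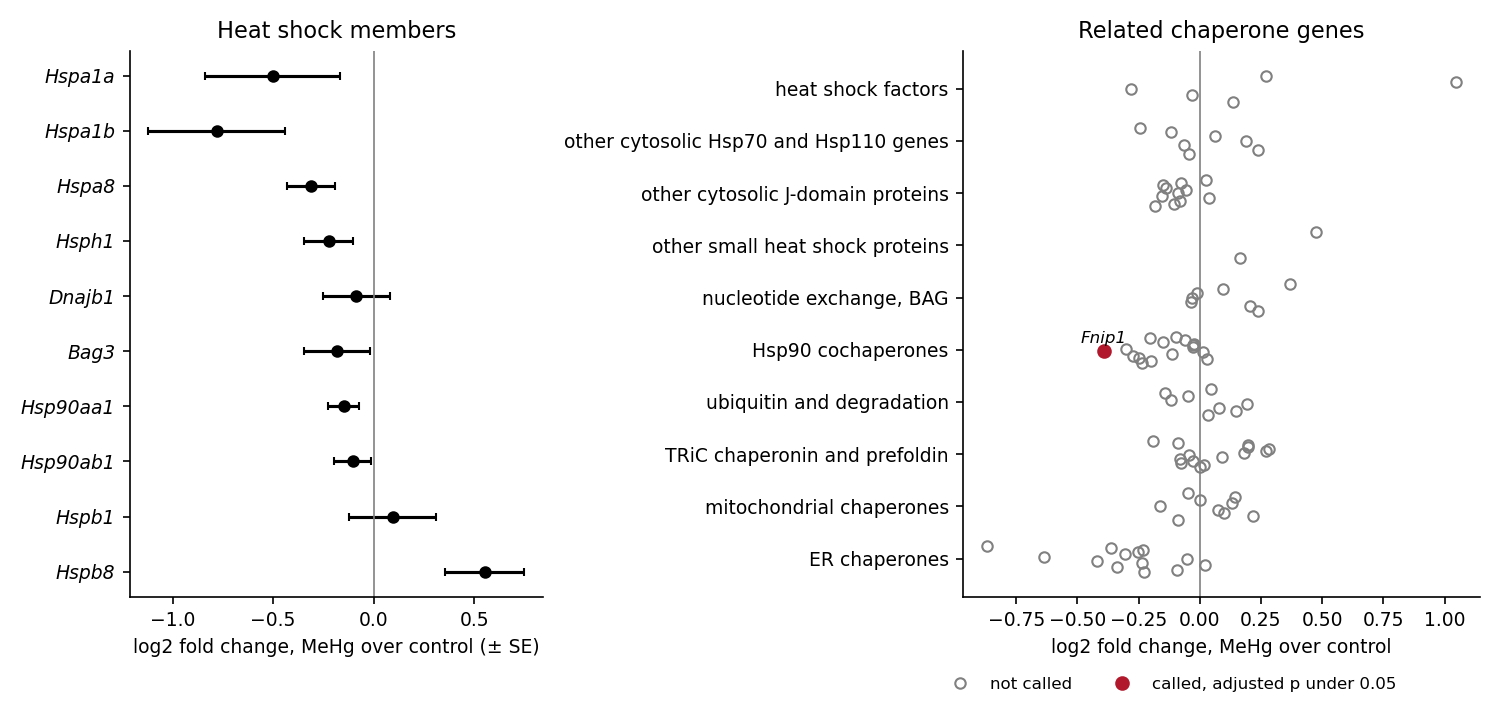
Log2 fold change of MeHg over control. Left, the 10 heat shock genes with their SE, of which 0 were called and 8 lie below 0. Right, 92 of the 93 tested partner genes by class (open circles), with Fnip1 (-0.39) filled in red as called.

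The genes most like the inducible pair and Hspa8 across the 6 libraries were sought among 11557 genes with a mean of at least 5 CPM. For the sum of Hspa1a and Hspa1b they were Cct4, a chaperonin subunit (Pearson r = 0.996), Csrnp1 (0.992), Tnfrsf11b (0.988), the ubiquitin-conjugating enzyme Ube2h (0.979) and St13, the Hsp70-interacting protein Hip (0.976). For Hspa8 they were Dennd6a (0.996), the transcription factor Klf15 (0.991), the endoplasmic reticulum Hsp70 Hspa5 (0.991), St13 again (0.990) and C2cd3 (0.988). The r are over 6 libraries and were the highest of many, so they describe these libraries only. Hspa5 was at 584, 308 and 544 CPM in controls 1, 2 and 3 and 296 to 317 CPM in MeHg. None of these 9 genes passed the test between groups.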

How the data were processed

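RNA of the cerebellum of 6 mice was sequenced in paired ends, per the labels' protocols. The authors deposited unnormalized read counts for each gene. A second table deposited by the authors holds FPKM, which equal the counts divided by gene length and a library total 1.04 to 1.09 times the sum of the table. The submitters' processing notes name DESeq2 and the build mm39. For the aligner, the counter and strand the entry is: not given in the sources used here. No value column was left unmapped (0).

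Genes were filtered with filterByExpr and scaled by TMM in edgeR 4.0.16 (R 4.3.3). MeHg was compared with control by the quasi-likelihood test with group as the only term, and p-values were adjusted over 16859 genes by the Benjamini-Hochberg method (threshold 0.05). The SE is the absolute log2 fold change divided by the square root of F. The fit was checked on simulated counts with planted changes. Libraries of a group were not copies (chi-square per degree of freedom 7.87 to 20).

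The members, gene lists and tests were chosen with earlier results of these data known. All members are named, along with the called genes of each partner list (at most 3 in each direction) or else the gene with the smallest p (1 called partner gene is not reported here), and the 5 genes most correlated with Hspa8 and with the Hspa1 sum. Hsf1, Cryab, Fos, Egr3, Arc, Ttr and the values of Hspa5 in each library were given outside that rule, after their values were seen. Alternatives used DESeq2 1.42.0, limma 3.58.1, other scalings and filters, a length offset, sex or replicate terms and fewer libraries. Leaving out both libraries numbered 2 and the Xist term were added after seeing the data. Upstream stretches came from a RefSeq promoter table and were placed in GRCm39 by exact match.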

Additional observations from a re-analysis of the deposited data

How the results depend on the processing

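Of the 10 members, 8 kept the sign of their fold change under all alternatives run (19 for each, 20 for Hspa1a). Dnajb1 turned positive without Control 1 (0.071) and without MeHg 2 (0.04), with -0.25 to 0.071 over the fits without 1 library. Hspb1 turned negative with the length offset (-0.0099), without Control 2 (-0.11), without MeHg 3 (-0.02) and with the Xist term (-0.016), with -0.11 to 0.23 over the fits without 1 library. The causes were not tested. Summing Hspa1a and Hspa1b, or leaving Hspa8 and Hsp90ab1 out of the totals, changed no call.

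Members called were 1 higher and 2 lower with no filter, 1 and 1 with DESeq2, 1 and 0 with the labelled sex, and 1 and 3 without both libraries numbered 2, where 7.38%, 8.97%, 3.61% and 10.3% of all genes were called. Leaving out 1 library gave 0 to 1 members higher and 0 to 1 lower.

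Over all genes, 97 rose and 301 fell. These counts were 1200 and 1178 with no filter, 569 and 825 with DESeq2, 846 and 794 with the Xist term, 607 and 1116 without both libraries numbered 2, 193 and 416 with the labelled sex, 78 and 119 with upper-quartile scaling, and 0 and 0 with limma on FPKM (1 or 0.1 added) or the length offset (3874, 3887 and 3583 genes at an unadjusted p under 0.05). Leaving out 1 library gave 0 to 373 higher and 0 to 718 lower.

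Partner genes called were 1 higher and 1 lower. They were 3 and 11 with no filter, 2 and 5 with DESeq2, 3 and 6 with the Xist term, 4 and 18 without both libraries numbered 2, 1 and 2 with the labelled sex, 1 and 0 with upper-quartile scaling, and 0 and 0 with limma on FPKM or the length offset. Of all genes, 3.73% and 3.66%, 3.66% and 5.31%, 5.02% and 4.71%, 3.61% and 6.65%, 1.14% and 2.47%, and 0.463% and 0.706% were called higher and lower in the first 6 of these settings. Leaving out 1 library gave 0 to 2 higher and 0 to 7 lower.

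With the replicate number as a block, 258 genes rose and 390 fell, no member was called, and 2 partner genes rose and 2 fell (Hsf4 and Sdf2l1 among them, at adjusted p = 0.0388 and 0.0404), beside 1.53% and 2.31% of all genes. Deviations of same-numbered libraries correlated at 0.187, 0.346 and -0.236, and Control 1 correlated better with MeHg 3 (0.358) than with MeHg 1. Whether the numbers pair the samples was not tested. Depth limits the lowest members most: Hspa1a had 80 to 245 counts a library and Hspa1b 106 to 316.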
